A study of Mus musculus with 12 samples.

Results

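Prostaglandin and leukotriene synthesis was followed through 10 genes, chosen by symbol as the enzymes and the activating protein that turn free arachidonic acid into these lipids. All 10 of 10 were found among the 53801 genes of the count and TPM matrices, and all 10 had enough counts to be among the 15306 genes tested. RNA of whole hearts was sequenced from C57BL/6N mice aged 10 to 14 weeks, all wild type, after sham surgery or after acute myocardial infarction (AMI). AMI was made by permanent ligation of the left anterior descending coronary artery, and hearts were taken on day 1 or on day 7. Each group held 4 hearts with 1 library each, and the day on which sham hearts were taken is not given in the sources used here.

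The labels number the hearts of a group as replicates, and the hearts of different groups are different mice. The surgeries of the study used male mice. RNA came from the whole heart, so infarcted and uninfarcted muscle, blood and invading cells were read together, and fewer cells of a type cannot be told apart from less RNA per cell in any value below. The 8 cardiomyocyte markers summed to between 43289 and 99842 CPM in every library, as the tissue label says. Depth ran from 23204551 to 32166517 counts per library, at which 3 counts, taken as the floor, stood for 0.0895 to 0.156 CPM. Sham replicate 2 stood apart from the other sham hearts in blood and leukocyte markers: its erythroid markers summed to 4459 CPM against 491 to 1180.2 CPM, and its neutrophil markers to 64.4 CPM against 4.54 to 36.3 CPM. It was also the highest sham heart for *Ptgds*, *Alox5ap*, *Ptgs2*, *Ptgis* and *Ltc4s*, and the lowest for *Alox5*. The results on *Ptgds* and *Alox5ap* are given with and without it. With any 1 library left out, the log2 difference of *Ptgs2* from sham ran from 2.47 to 3.26 on day 1. On day 7 it ran from 1.74 to 2.35 for *Ptgs2* and from 0.63 to 0.92 for *Ltc4s*.

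Arachidonic acid is cut from membrane lipids by phospholipases and then enters several branches. In the prostaglandin branch the cyclooxygenases *Ptgs1* (COX-1) and *Ptgs2* (COX-2) make the unstable intermediate prostaglandin H2. Terminal synthases turn it into prostaglandin D2 (*Ptgds*), prostaglandin E2 (*Ptges*) or prostacyclin (*Ptgis*), of which prostacyclin widens vessels and keeps platelets quiet. In the leukotriene branch 5-lipoxygenase (*Alox5*), helped by its activating protein FLAP (*Alox5ap*), makes leukotriene A4, which *Ltc4s* joins to glutathione. *Alox12* and *Alox15* are lipoxygenases that oxygenate arachidonic acid at other carbons and take part in making other lipid mediators, lipoxins among them. Blood and tissue leukocytes are the best known source of leukotrienes, and *Ptgs2* is known as the cyclooxygenase that inflammatory stimuli induce.

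The genes lie on 5 chromosomes in GRCm38, with coordinates here from the GENCODE M21 annotation, and all are protein coding. Chromosome 2 carries 4 of them: *Ptgds* (chr2:25466709-25470046, minus strand), *Ptges* (chr2:30889471-30929863, minus), *Ptgs1* (chr2:36230426-36252272, plus) and *Ptgis* (chr2:167191805-167240604, minus). Chromosome 11 carries 3: *Ltc4s* (chr11:50236461-50238616, minus), *Alox12* (chr11:70241457-70255353, minus) and *Alox15* (chr11:70344152-70352031, minus). *Alox12* and *Alox15* are 88798 bases apart. *Ptgs2* (chr1:150100031-150108227, plus), *Alox5ap* (chr5:149264767-149288153, plus) and *Alox5* (chr6:116410077-116461178, minus) stand alone on their chromosomes.

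The cyclooxygenases carry out the same step, and *Ptgs2* was called after AMI while *Ptgs1* was not, so the 250 bases before each start are shown. They are from RefSeq for GRCm38.p6, where 7 of the 10 genes matched an entry (*Ptgis*, *Alox5ap* and *Alox15* did not). Both are on the plus strand and are written 5′ to 3′, with capitals for the letters that matched a motif searched.
Ptgs2, chr1:150099781-150100030: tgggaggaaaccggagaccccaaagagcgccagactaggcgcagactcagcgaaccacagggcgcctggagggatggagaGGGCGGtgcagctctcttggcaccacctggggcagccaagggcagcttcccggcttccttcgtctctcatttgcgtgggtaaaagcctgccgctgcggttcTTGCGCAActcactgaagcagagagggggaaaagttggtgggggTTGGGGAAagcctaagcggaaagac
Ptgs1, chr2:36230176-36230425: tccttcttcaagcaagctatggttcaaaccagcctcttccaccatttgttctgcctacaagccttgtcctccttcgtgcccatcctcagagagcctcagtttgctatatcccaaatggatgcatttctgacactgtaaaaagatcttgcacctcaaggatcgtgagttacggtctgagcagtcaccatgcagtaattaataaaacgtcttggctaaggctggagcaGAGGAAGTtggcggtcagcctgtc
In the *Ptgs2* window the GC box GGGCGG stood at −170 to −165, and the C/EBP pattern TTNNGNAA at −69 to −62 and at −25 to −18, counted back from the start. The *Ptgs1* window held neither of these, and held the PU.1 pattern GAGGAAGT at −24 to −17. Both strands were searched, also for the TATA box TATAAA, the cAMP response element TGACGTCA and the TGACG inside it, the E-box CACGTG, the AP-1 motif TGANTCA and the NF-kB motif. None of these was in either window, and the matches shown did not overlap each other. Bases after the annotated start, or further upstream, were not searched. The absence of a motif therefore holds for these 250 bases only and not for the whole promoter. Of 32851 promoters of the same length, 32.7% held GGGCGG, 36.8% held TTNNGNAA and 2.44% held GAGGAAGT. The other motifs were in 12.4% (TATAAA), 1.55% (TGACGTCA), 17.8% (TGACG), 6.02% (CACGTG), 6.75% (TGANTCA) and 3.9% (NF-kB). Of the 7 genes with an entry, GGGCGG was also in *Ptges*, *Alox5* and *Alox12*, and TTNNGNAA also in *Ptgds*, *Ptges* and *Alox12*. The only AP-1 and NF-kB matches among the 7 were in *Ptgds*, which was called lower after AMI. A match describes the letters and says nothing of which factor was bound.

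In the sham heart the 10 genes differed widely in level, and *Ptgds* stood far above all others. Levels of different genes are compared as TPM, which are scaled for transcript length. *Ptgds*, the lipocalin-type prostaglandin D synthase, had a mean of 566 ± 192 TPM (SD, n = 4) in sham hearts, and its 4 hearts made up 90.5% to 93.1% of the summed TPM of the 10 genes. *Alox5ap* (13.3 TPM), *Alox5* (10.1 TPM), *Ptgis* (9.79 TPM), *Ltc4s* (7.10 TPM) and *Ptgs1* (5.25 TPM) followed, and each neighbour in that order overlapped the next between hearts. *Alox12* (3.04 TPM) and *Ptges* (0.655 TPM) stood apart from their neighbours, and *Ptgs2* (0.178 TPM) and *Alox15* (0.10 TPM) were lowest and overlapped.

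After AMI *Ptgds* was still the highest, but its share of the summed TPM was smaller in every heart than in any sham heart. It made up 71.6% ± 4.52 (SD, n = 4) on day 1 and 52.4% ± 9.20 (SD, n = 4) on day 7, against 91.7% ± 1.18 in sham. The summed TPM of the 10 genes was 615 ± 201 in sham, 369 ± 15.4 on day 1 and 281 ± 32.2 on day 7. *Alox5ap* (48.7 TPM) and *Ptgis* (23.4 TPM) ranked next on day 1 without overlap with each other or with the next gene. On day 7 *Alox5ap* (48.7 TPM) and *Ptgis* (40.1 TPM) overlapped each other and stood above *Ltc4s* (16.9 TPM). *Ptgs2* stayed among the lowest 3 genes in every group, at 1.75 TPM on day 1 and 1.14 TPM on day 7, as did *Alox15*, at 0.533 TPM and 0.508 TPM. A share of a sum moves with every gene in it, and no test was run on these shares.

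**Figure D1:**
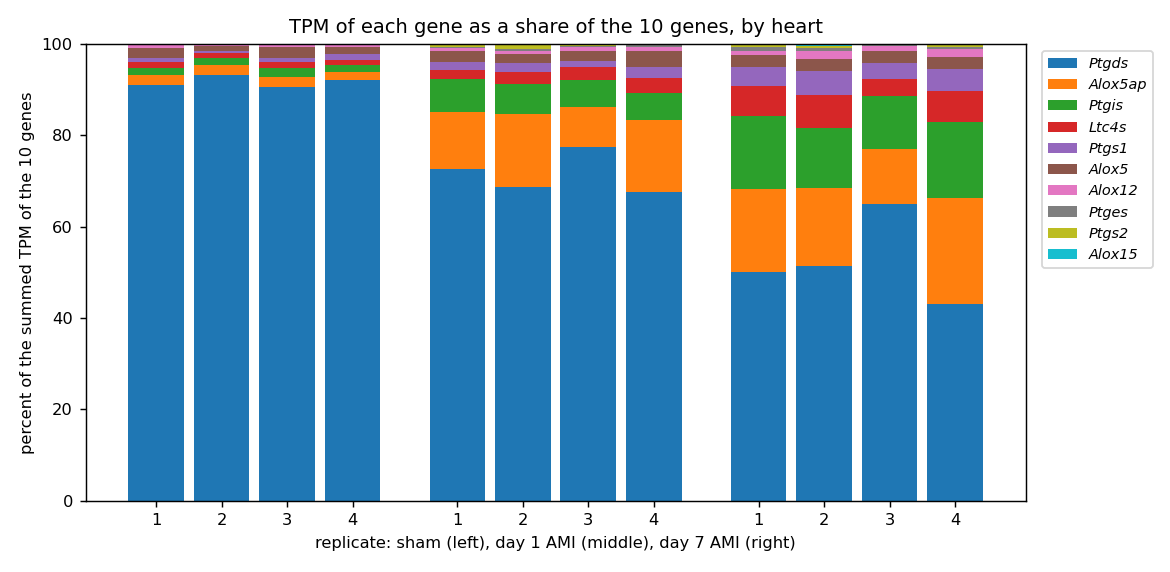
TPM of each of the 10 genes as a percent of their sum in each heart (y axis), by replicate and group (x axis), 1 stacked bar per heart. *Ptgds* fills 90.5% to 93.1% of the sham bars, 67.6% to 77.6% of the day 1 bars and 43.0% to 65.0% of the day 7 bars.

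Differences between groups are given as log2 fold changes (FCs) from edgeR's quasi-likelihood test on the counts, fitted to the 12 libraries together. A gene was called when its FC was 2 or greater and its Benjamini-Hochberg FDR over the 15306 genes was below 0.05. Levels of 1 gene across hearts are given as normalized CPM, counts per library size scaled by TMM (CPM, the number that a library of a standard size would hold). The comparisons of day 1 and of day 7 with sham share the 4 sham hearts, so each is given by its own values.

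Between day 1 AMI and sham, 3 of the 10 genes were called higher (*Ptgs2*, *Alox5ap* and *Alox15*) and 1 lower (*Ptgds*). Of all genes tested, 7.79% were called higher and 2.98% lower. *Alox15* did not pass the filter on low counts when edgeR was fitted to only these groups. The hearts of the groups did not overlap for 4 genes that were higher (*Ptgs2*, *Alox5ap*, *Ptges* and *Ptgis*) and 2 that were lower (*Ptgds* and *Alox12*), against 19.6% and 17.1% of all genes. An FDR below 0.05 at any FC was reached by 8 of the 10, against 41.8% of all genes. The median log2 FC of the 10 genes was 0.49, and that of all genes −0.01.

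Between day 7 AMI and sham, 3 were called higher (*Ptgs2*, *Alox5ap* and *Ptgis*) and 1 lower (*Ptgds*), where 15.3% of all genes were called higher and 5.88% lower. The hearts did not overlap for 3 genes that were higher (*Ptgs2*, *Ptges* and *Ptgis*) and 2 that were lower (*Ptgds* and *Alox5*), against 28.3% and 24.7% of all genes. An FDR below 0.05 was reached by 8 of the 10, against 59.3% of all genes, and the median log2 FC was 0.81 against 0.03.

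Between day 7 and day 1 AMI, 0 of the 10 genes were called higher in edgeR, as in DESeq2 and limma, and 1 was called lower (*Ptgds*), where 8.55% and 2.69% of all genes were called. With no minimum on the FC, 3 were higher (*Ptgs1*, *Ptgis* and *Ltc4s*) and 2 lower (*Ptgds* and *Alox5*), and these 5 of 10 stand against 47% of all genes. The hearts did not overlap for *Ptgs1* and *Ptgis*, which were higher, and for *Ptgds* and *Alox5*, which were lower, against 23.5% and 20.9% of all genes. The median log2 FC was −0.24 against 0.02.

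**Figure D2:**
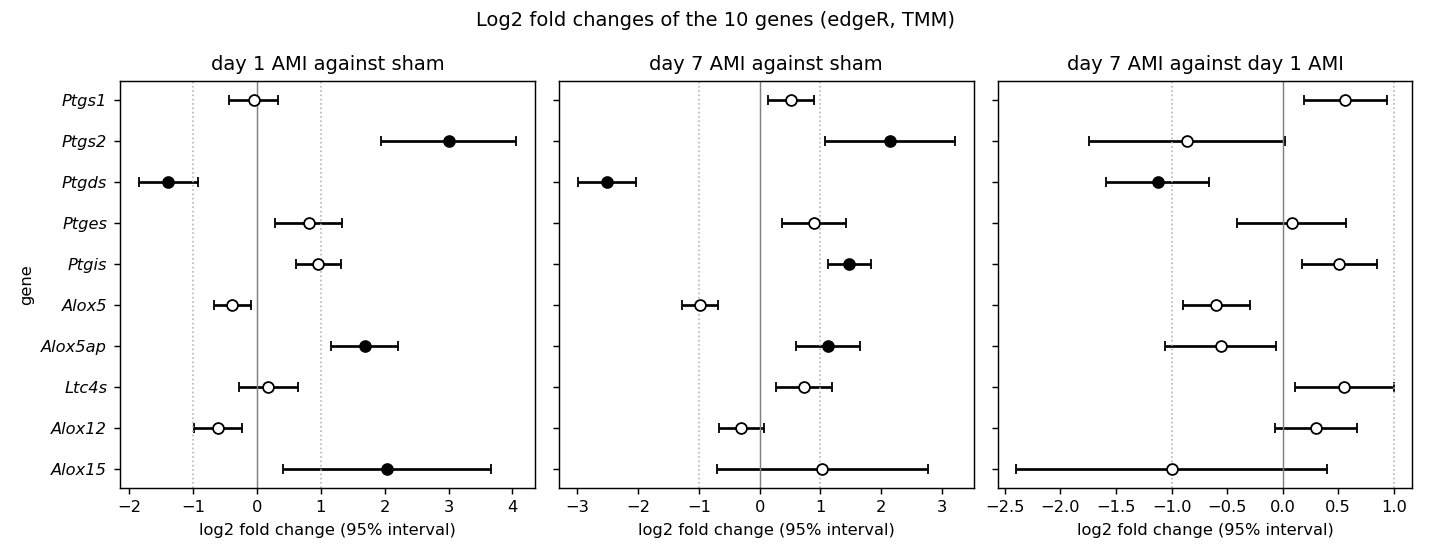
Log2 FC of each of the 10 genes (x axis, with its 95% interval; each panel has its own scale) for day 1 AMI against sham, day 7 AMI against sham and day 7 against day 1 AMI, by gene (y axis), from edgeR. Filled points were called and dotted lines mark a FC of 2: 4 points are filled in each comparison with sham, and *Ptgds* alone between the AMI groups.

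*Ptgs2*, the inducible cyclooxygenase, rose after AMI from a level near the bottom of the tested range. Its normalized CPM in the 4 sham hearts was 0.574, 0.862, 0.582 and 0.669. On day 1 it was 5.12, 10.4, 3.96 and 2.27, and on day 7 it was 5.11, 3.20, 1.59 and 2.04. Every AMI heart was above every sham heart, the day 1 hearts differed among themselves more than the sham hearts did, and the groups of day 1 and day 7 overlapped. The log2 FC was 3.00 (SE 0.492, adjusted p = 0.000354) on day 1 and 2.14 (SE 0.499, adjusted p = 0.00199) on day 7, both against sham. On log2(TPM + 1), which understates changes of low genes, they were 1.14 and 0.82, and the latter was no longer called. Day 7 against day 1 gave −0.86 (SE 0.411, adjusted p = 0.1), with a 95% interval from −1.74 to 0.02. That comparison rested on single hearts: it was called lower without day 1 AMI replicate 4 (−1.12, adjusted p = 0.0287) or without day 7 AMI replicate 1 (−1.26, adjusted p = 0.0263).

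Inflammatory cell markers were also higher in these hearts. The 8 leukocyte markers summed to 82.9 to 139 CPM in sham, 290 to 414 CPM on day 1 and 286 to 467 CPM on day 7, with 7 of 8 and 8 of 8 called higher than sham. The neutrophil markers summed to 4.54 to 64.4 CPM in sham, 53.5 to 191 CPM on day 1 and 11.6 to 45.5 CPM on day 7. Of the 10 neutrophil markers tested, 5 were called higher on day 1 and 7 were called lower on day 7 than on day 1, and *Ly6g* was at or under the floor on day 7. Day 1 AMI replicate 2 had the highest *Ptgs2*, the highest leukocyte and the highest neutrophil sum of its group. The lowest day 1 heart was replicate 4 for *Ptgs2* and replicate 3 for both sums. On day 7 *Ptgs2* was highest in replicate 1 and both sums in replicate 4. The part of these cells in *Ptgs2* was not tested.

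*Ptgs1*, the constitutive cyclooxygenase, was not called in any comparison. Its normalized CPM was 9.85, 9.48, 8.44 and 16.2 in sham hearts. It was 10.1, 12.4, 8.50 and 11.4 on day 1, and 14.8, 16.2, 15.1 and 16.7 on day 7. Sham replicate 4 was as high as the day 7 hearts, and the other sham hearts were at the level of day 1, so day 7 stood clear of day 1 but not of sham. The log2 FC on day 1 was −0.05 (95% interval −0.44 to 0.33, adjusted p = 0.835), and its sign turned on library sizes alone (0.23), on log2 TPM (0.33 and 0.38) and without sham replicate 4 (0.19) or day 1 AMI replicate 3 (0.04). On day 7 *Ptgs1* was higher than sham by 0.51 (SE 0.178, adjusted p = 0.0228) and higher than day 1 by 0.56 (SE 0.176, adjusted p = 0.0168), both below the FC minimum. The adjusted p of the former came above 0.05 without sham replicate 1 (0.0621), 2 (0.0641) or 3 (0.076) or day 7 AMI replicate 4 (0.0533), and that of the latter without day 1 AMI replicate 3 (0.0547). Against sham it reached the FC minimum on log2(TPM + 1), where the difference was 1.10.

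Within each heart the ratio of the cyclooxygenases was in favour of *Ptgs1*. The log2 ratio of *Ptgs2* to *Ptgs1* counts was −3.96 ± 0.471 (SD, n = 4) in sham, −1.16 ± 0.858 on day 1 and −2.53 ± 0.770 on day 7. No sham heart overlapped an AMI heart. The difference from sham was 2.80 on day 1 and 1.43 on day 7, each with p = 0.0286 in an exact two-sided permutation test, the smallest p that 4 hearts against 4 can give. After correction over the 9 ratio tests of this kind each was 0.0643 in the exact permutation tests, above 0.05. In TPM, *Ptgs2* made up 3.43% ± 1.12 (SD, n = 4) of the cyclooxygenase pair in sham, 19.9% ± 9.11 on day 1 and 8.32% ± 3.73 on day 7.

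**Figure D3:**
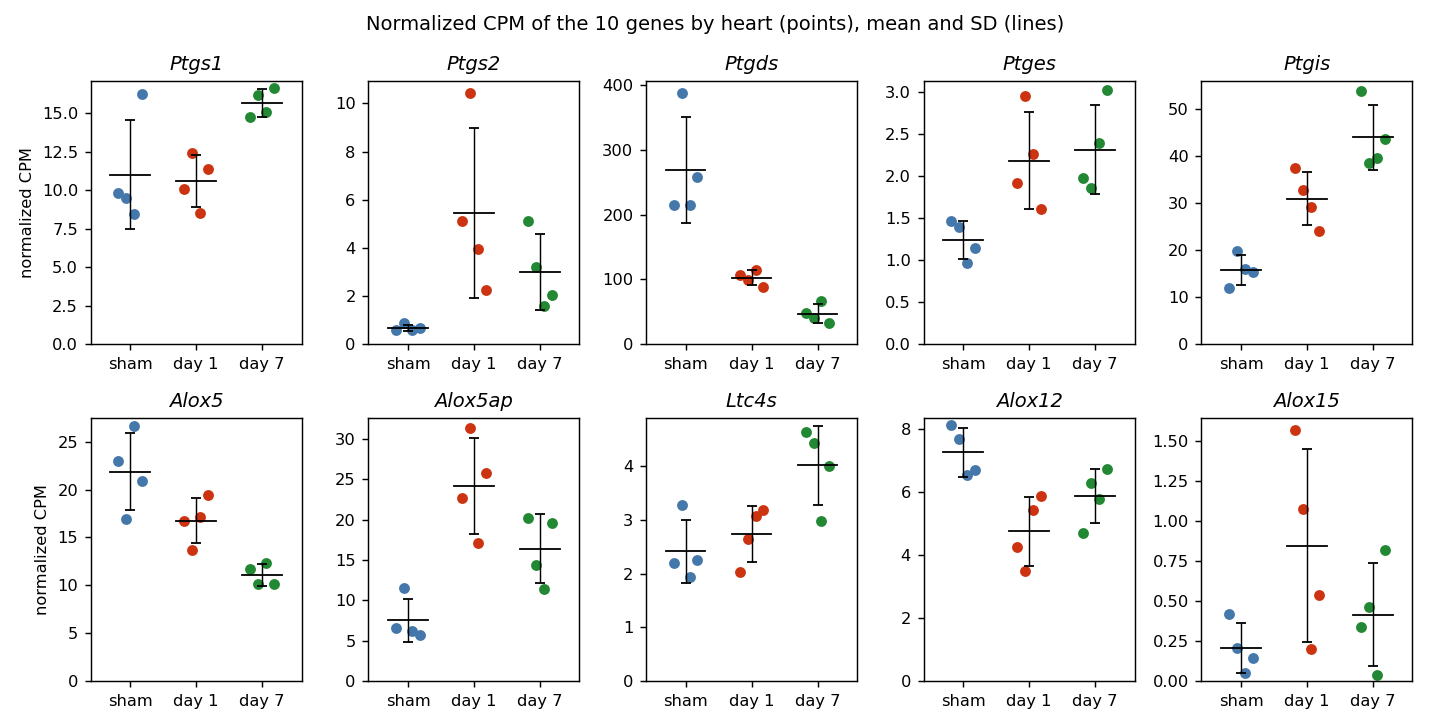
Normalized CPM of each of the 10 genes (y axis, linear, from 0) in each heart (points) of the 3 groups (x axis), with the mean and SD of 4 hearts as lines. *Ptgs2* and *Ptgis* lie above sham in every AMI heart, *Ptgds* lies below sham in every AMI heart, and the sham point of 11.5 CPM for *Alox5ap* lies apart from the other sham hearts.

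*Ptgds* fell at each step, and it was the only one of the 10 genes called in all 3 comparisons. It had 214, 388, 215 and 257 CPM in sham hearts, with sham replicate 2 the highest. On day 1 it had 107, 99.6, 115 and 88.5 CPM, and on day 7 it had 48.5, 40.6, 66.6 and 32.5 CPM. The 3 groups did not overlap. The log2 FC was −1.39 (SE 0.215, adjusted p = 0.000237) on day 1 and −2.51 (SE 0.224, adjusted p = 5.81e-07) on day 7 against sham, and −1.12 (SE 0.215, adjusted p = 0.000738) between day 7 and day 1. Without sham replicate 2 the differences from sham were −1.16 and −2.28, both still called. Between the AMI groups the FC came under 2 without day 7 AMI replicate 4 (−0.98) and on log2 TPM (−0.86 with a pseudocount of 1 or 0.1).

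The summed level of the 8 cardiomyocyte markers was also lower after AMI: 86410 to 99842 CPM in sham, 51289 to 64464 CPM on day 1 and 43289 to 50208 CPM on day 7. Against sham, 0 of 8 were called lower on day 1 in edgeR, where 7 of 8 had an FDR below 0.05, and 6 of 8 were called lower on day 7. The median log2 FC of the 8 markers was −0.65 on day 1 and −1.15 on day 7, against −1.39 and −2.51 for *Ptgds*. Sham replicate 2 had the highest *Ptgds* and the lowest marker sum of its group (86410 CPM). Day 1 AMI replicate 4 had the lowest *Ptgds* and the highest sum of its group (64464 CPM). On day 7 replicate 3 was highest in both, with 66.6 CPM of *Ptgds* and a sum of 50208 CPM. The part of cardiomyocytes in the lower *Ptgds* was not tested.

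*Ptgis*, the prostacyclin synthase, was higher on day 1 and rose on day 7. It had 11.9, 19.9, 16.0 and 15.4 CPM in sham hearts. It had 37.6, 32.8, 29.3 and 24.2 CPM on day 1, and 54.0, 38.7, 39.7 and 43.7 CPM on day 7. The 3 groups did not overlap. The log2 FC against sham was 1.47 (SE 0.164, adjusted p = 3.99e-06) on day 7. On day 1 it was 0.96 (SE 0.163, adjusted p = 0.000456), just under a FC of 2, which it passed without sham replicate 2 (1.09), without day 1 AMI replicate 4 (1.06), on library sizes alone (1.22) and on log2 TPM (1.20 and 1.27). Day 7 was higher than day 1 by 0.51 (SE 0.158, adjusted p = 0.0162), with an adjusted p of 0.0535 without day 1 AMI replicate 4 and of 0.057 without day 7 AMI replicate 1.

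Fibroblast markers summed to 1982 to 2487 CPM in sham, 1508 to 2103 CPM on day 1 and 3515 to 6839.6 CPM on day 7. Against sham, 1 of the 7 was called higher and 0 lower on day 1 in edgeR. On day 7, 3 were called higher and 1 lower. Markers of activated fibroblasts, such as periostin, summed to 364 to 620 CPM, 1099 to 1610.5 CPM and 5359 to 10302 CPM. Day 7 AMI replicate 1 was the highest heart of all in *Ptgis* and in both of these sums. The order differed in the other groups. On day 1 replicate 1 was highest in *Ptgis* and lowest in the fibroblast sum (1508 CPM). Replicate 4 of day 1 was lowest in *Ptgis* and highest in that sum (2103 CPM). Sham replicate 1 was lowest in *Ptgis* and highest of its group in the activated fibroblast sum (620 CPM). Endothelial markers summed to 889 to 1022 CPM in sham, 766 to 815 CPM on day 1 and 1196 to 1329.97 CPM on day 7, and those of smooth muscle and pericytes to 710 to 841 CPM, 572 to 640 CPM and 1020.4 to 1246 CPM. Of the 7 smooth muscle and pericyte markers, 1 was called higher and 0 lower on day 1 in edgeR, with a median log2 FC of 0.27. The part of these cells in *Ptgis* was not tested.

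*Ptges*, the inducible microsomal prostaglandin E synthase, was higher after AMI by less than a FC of 2. It had 1.46, 1.40, 0.970 and 1.15 CPM in sham hearts. It had 1.91, 2.95, 2.26 and 1.61 CPM on day 1, and 1.97, 1.85, 2.4 and 3.02 CPM on day 7. Each AMI heart was above each sham heart, and day 1 and day 7 covered the same range. The log2 FC against sham was 0.81 (SE 0.246, adjusted p = 0.0166) on day 1 and 0.89 (SE 0.246, adjusted p = 0.00611) on day 7. The adjusted p on day 1 came above 0.05 without sham replicate 3 (0.0511) or day 1 AMI replicate 2 (0.0657). On log2(TPM + 1) the day 1 difference was 0.41 (adjusted p = 0.0592). On library sizes alone the FC passed 2 on both days (1.08 and 1.30). Day 7 against day 1 gave 0.08, with a 95% interval from −0.41 to 0.57 (adjusted p = 0.796).

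Among the 3 terminal synthases, then, *Ptgds* was the most abundant in each group and *Ptgis* came nearer to it after AMI. Of the summed TPM of *Ptgds*, *Ptgis* and *Ptges*, *Ptgis* made up 1.74% ± 0.268 (SD, n = 4) in sham, 8.11% ± 0.973 on day 1 and 21.7% ± 5.39 on day 7. *Ptgds* made up 98.1% ± 0.278, 91.5% ± 0.989 and 77.4% ± 5.62. The log2 ratio of *Ptges* to *Ptgis* counts was −3.64 ± 0.438 in sham, −3.83 ± 0.348 on day 1 and −4.26 ± 0.402 on day 7. The exact permutation test gave p = 0.543 for day 1 against sham, p = 0.0571 for day 7 against sham and p = 0.171 between day 7 and day 1, before correction over 9 tests. From TPM in place of counts the difference of day 7 from sham was −0.86 (exact permutation p = 0.0286).

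In the leukotriene branch the activating protein and the enzyme moved in opposite directions on day 7, the former past a FC of 2. *Alox5ap* (FLAP) had 6.62, 11.5, 6.16 and 5.74 CPM in sham hearts. It had 22.7, 31.3, 17.1 and 25.8 CPM on day 1, and 20.3, 14.4, 11.4 and 19.6 CPM on day 7. All day 1 hearts were above all sham hearts, while the lowest day 7 heart was just below sham replicate 2. The log2 FC was 1.68 (SE 0.248, adjusted p = 0.000168) on day 1 and 1.12 (SE 0.248, adjusted p = 0.00132) on day 7, and without sham replicate 2 it was 1.97 and 1.41. Day 7 against day 1 gave −0.56 (SE 0.234, adjusted p = 0.0636), and the difference on log2(TPM + 1) was 0.01. In mean TPM *Alox5ap* stood at 48.7 ± 12.0 on day 1 and 48.7 ± 10.3 on day 7 (SD, n = 4), since the TPM that went with 1 CPM ran from 1.85 in day 1 AMI replicate 2 to 2.95 in day 7 AMI replicate 3.

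*Alox5*, the 5-lipoxygenase itself, had 22.9, 17.0, 26.7 and 20.9 CPM in sham hearts. It had 16.7, 13.7, 17.2 and 19.5 CPM on day 1, and 11.7, 10.2, 12.3 and 10.1 CPM on day 7. Day 7 lay below both other groups without overlap, and day 1 overlapped sham. The log2 FC against sham was −0.38 (SE 0.139, adjusted p = 0.0388) on day 1, and with 1 library left out its adjusted p ran from 0.00897 to 0.138. On library sizes alone day 1 gave −0.11 (adjusted p = 0.549). On day 7 the difference from sham was −0.98 (SE 0.141, adjusted p = 3.88e-05), so close to a FC of 2 that it was called without sham replicate 2 (−1.09), sham replicate 4 (−1.0), day 7 AMI replicate 1 (−1.01) or day 7 AMI replicate 3 (−1.04). It was smaller on library sizes alone (−0.58, adjusted p = 0.00224) and on log2(TPM + 1) (−0.39, adjusted p = 0.0286). Day 7 against day 1 gave −0.60 (SE 0.140, adjusted p = 0.00314). It was −0.47 (adjusted p = 0.0132) on library sizes alone and −0.32 (adjusted p = 0.0891) on log2(TPM + 1). In TPM the hearts of these groups overlapped, with 6.45 to 8.06 on day 7 and 7.72 to 12.2 on day 1.

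The log2 ratio of *Alox5* to *Alox5ap* counts was 1.58 ± 0.694 (SD, n = 4) in sham, −0.51 ± 0.502 on day 1 and −0.54 ± 0.469 on day 7. Every sham heart had more counts of *Alox5* than of *Alox5ap*, and 6 of the 8 AMI hearts had fewer. Counts are not scaled for transcript length, so which of the 2 genes is higher cannot be read from them. In mean TPM *Alox5ap* was above *Alox5* in sham too (13.3 against 10.1), with overlap between hearts. The difference of the log2 ratio from sham was −2.09 on day 1 and −2.12 on day 7. Each had p = 0.0286 in the exact two-sided permutation test and 0.0643 after correction over the 9 tests. Between day 7 and day 1 it was −0.03 (exact permutation p = 0.914). The lowest sham ratio (0.56) was that of replicate 2. With 1 heart left out, the differences from sham ran from −2.43 to −1.86 on day 1 and from −2.46 to −1.94 on day 7.

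**Figure D4:**
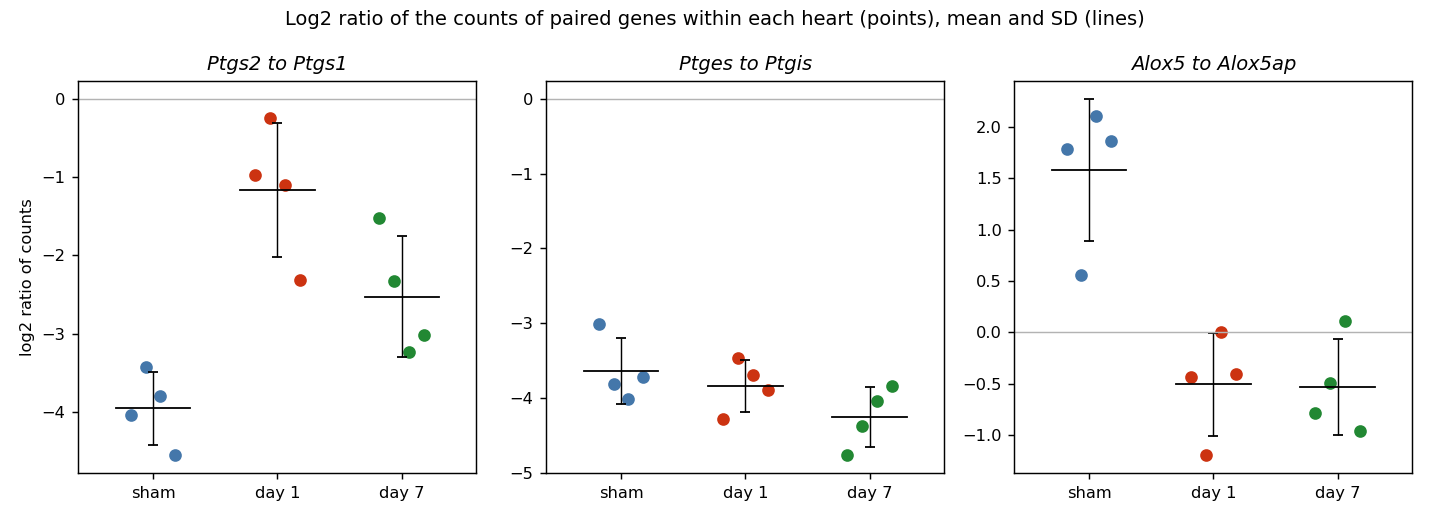
Log2 ratio of the counts of paired genes within each heart (points, y axis; each panel has its own scale) by group (x axis), with the mean and SD of 4 hearts as lines. The sham hearts lie below all AMI hearts for *Ptgs2* to *Ptgs1* and above all AMI hearts for *Alox5* to *Alox5ap*, while the *Ptges* to *Ptgis* ratios overlap.

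Monocyte and macrophage markers summed to 178 to 274 CPM in sham, 328 to 451 CPM on day 1 and 452 to 717 CPM on day 7, with 7 of 11 and 9 of 11 called higher than sham. *Alox5ap* is known to be made by many myeloid cells. Its highest sham heart, replicate 2, was also the highest sham heart in the leukocyte, neutrophil and monocyte sums, and its highest day 1 heart, replicate 2, was the highest of its group in all 3. On day 7 its highest heart in CPM, replicate 1 (20.3 CPM), was highest in the monocyte sum only. Replicate 4 was close to it (19.6 CPM) and was the highest day 7 heart in TPM (58.9 against 55.7). The leukocyte and neutrophil sums of day 7 were highest in replicate 4. Markers of resident macrophages were lower on day 7, with sums of 110 to 145 CPM in sham, 102 to 149 CPM on day 1 and 79.3 to 89.1 CPM on day 7, and 0 of 6 were called in edgeR in any comparison (3 of 6 had an FDR below 0.05 on day 7). The part of these cells in the levels of *Alox5ap* and *Alox5* was not tested.

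*Ltc4s*, the leukotriene C4 synthase, was higher on day 7. It had 2.19, 3.28, 1.94 and 2.25 CPM in sham hearts. It had 2.03, 2.65, 3.07 and 3.18 CPM on day 1, and 4.65, 4.44, 2.99 and 4.01 CPM on day 7. Day 7 AMI replicate 3 lay inside the range of sham and of day 1, and the other day 7 hearts were above both. The log2 FC against sham was 0.18 (95% interval −0.29 to 0.64, adjusted p = 0.538) on day 1 and 0.73 (SE 0.213, adjusted p = 0.00874) on day 7, and it passed a FC of 2 on day 7 on library sizes alone (1.12) and on log2 TPM (1.15 and 1.25). Day 7 against day 1 gave 0.55 (SE 0.207, adjusted p = 0.04). That adjusted p was 0.117 without day 1 AMI replicate 1.

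Mast cells are a known site of *Ltc4s* and of *Hpgds*, the hematopoietic prostaglandin D synthase. Of the 5 mast cell markers tested, 0 were called on day 1 in edgeR and 1, the receptor *Kit*, was called higher on day 7 (log2 FC 1.96, adjusted p = 0.000889). On day 1 *Kit* was at 1.06 (adjusted p = 0.0519). The mast cell proteases *Cma1*, *Cpa3*, *Tpsb2* and *Mcpt4* were not called in any comparison, with group means of 0.595 to 1.21 CPM. *Fcer1a* was at or under the floor in sham. Their part in *Ltc4s* was not tested.

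*Alox12*, the platelet-type 12-lipoxygenase, had 8.13, 7.68, 6.54 and 6.69 CPM in sham hearts. It had 4.24, 3.49, 5.43 and 5.89 CPM on day 1, and 4.71, 6.29, 5.79 and 6.73 CPM on day 7. Day 1 lay below sham without overlap, and day 7 overlapped both. The log2 FC on day 1 was −0.61 (SE 0.173, adjusted p = 0.0122), under a FC of 2, and −0.33 (adjusted p = 0.14) on library sizes alone. On day 7 it was −0.31 (95% interval −0.67 to 0.06, adjusted p = 0.142), and its sign turned on library sizes alone (0.10) and on log2 TPM (0.19 and 0.24). The platelet and megakaryocyte markers summed to 13.3 to 37.8 CPM in sham, 29.3 to 41.0 CPM on day 1 and 15.7 to 25.0 CPM on day 7. Of the 5 of these markers tested, 1 was called higher and 2 lower on day 1, and their part in *Alox12* was not tested.

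*Alox15*, the 12/15-lipoxygenase, was the scarcest of the 10 genes and its call is the least certain. Its counts were 8, 5, 1 and 3 in sham hearts, 41, 36, 6 and 17 on day 1, and 11, 12, 1 and 24 on day 7. As normalized CPM this was 0.0485 to 0.417 in sham, 0.196 to 1.57 on day 1 and 0.0369 to 0.816 on day 7. Replicate 3 was the lowest in each group, and the groups overlapped in every comparison. The log2 FC was 2.03 (SE 0.759, adjusted p = 0.0442) on day 1 and 1.03 (SE 0.810, adjusted p = 0.288) on day 7 against sham. With 1 library left out, the day 1 call was missed in 7 of 12 fits: without sham replicate 2, 3 or 4, day 1 AMI replicate 1 or 2, or day 7 AMI replicate 1 or 2 (highest adjusted p 0.137, without day 1 AMI replicate 1). On log2(TPM + 1) it was 0.45 (adjusted p = 0.0939). With edgeR fitted to only the groups compared, *Alox15* did not pass the filter on low counts in either comparison with sham. Eosinophils are known for this enzyme. Of their matched markers, 5 of 5 were at or under the floor in sham and on day 7, and 4 of 5 on day 1. Another listed marker, *Siglecf*, had no match. The part of these cells in *Alox15* was not tested.

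Some counts may hold reads of a neighbour, since the strand counted is not given. Annotated genes on the opposite strand covered 26.4% of the exon bases of *Ltc4s* (Gm26542), 13.3% of *Alox5ap* (Gm19719), 6.08% of *Ptgis* (1110018N20Rik) and 3.81% of *Ptgs1* (Gm43621). Their levels were low: at most 0.156 CPM for Gm26542, 0.365 CPM for Gm19719 and 0.143 CPM for Gm43621. The highest was 1110018N20Rik with 1.55 to 3.64 CPM, against 11.9 CPM in the lowest heart for *Ptgis*, and it was lower on day 1 by 0.56 on the log2 scale (adjusted p = 0.0647) while *Ptgis* was higher. No pair of the 10 genes shared 75 or more bases at 95% identity or more.

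Beyond the 10 genes, 53 genes of arachidonate release, other synthesis steps, breakdown and receptors were matched, and 39 of them were tested. Of the 39, 7 rose and 1 fell on day 1, 8 rose and 4 fell on day 7, both against sham, and 3 rose and 2 fell between day 1 and day 7. Of all genes tested, 7.79% were called higher and 2.98% lower on day 1, 15.3% and 5.88% on day 7, and 8.55% and 2.69% on day 7 against day 1. The median log2 FC of the list was 0.01, 0.04 and −0.03, near that of all genes.

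Of the genes for arachidonate release, 9 of 13 were tested. *Pla2g4a*, the cytosolic phospholipase A2 that feeds the cyclooxygenases and 5-lipoxygenase, rose from 3.15 ± 0.183 CPM (SD, n = 4) in sham to 6.92 ± 1.05 on day 1 (log2 FC 1.14, adjusted p = 8.26e-05) and 8.69 ± 1.21 on day 7 (1.46, adjusted p = 1.79e-06). On log2(TPM + 1) its day 1 difference was 0.92, under a FC of 2. The secreted phospholipases *Pla2g12a* (−1.51, adjusted p = 1.13e-06) and *Pla2g5* (−1.19, adjusted p = 2.29e-05) fell on day 7, as did the triglyceride lipase *Pnpla2* (−1.47, adjusted p = 1.11e-06), which had the highest mean TPM of the group over the 12 libraries (278). These falls came under a FC of 2 on log2 TPM, and that of *Pla2g5* also on library sizes alone. *Pla2g2d* was called lower on day 1 (−1.46, adjusted p = 0.042) at 0.237 ± 0.170 against 0.662 ± 0.356 CPM, a call that was not made in 6 of 12 fits with a library left out nor in 5 of 8 other fits.

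Of 7 other prostanoid synthases, all tested, *Tbxas1*, the thromboxane A synthase, rose from 3.00 ± 0.634 CPM (SD, n = 4) to 7.13 ± 1.53 on day 1 (1.24, adjusted p = 0.000728) and 8.60 ± 2.46 on day 7 (1.51, adjusted p = 5.43e-05). *Hpgds*, which makes the same prostaglandin D2 as *Ptgds*, was at 2.73 ± 0.83 CPM in sham, 3.52 ± 0.435 on day 1 and 11.5 ± 1.95 on day 7. It rose on day 7 against sham (2.08, adjusted p = 1.21e-06) and against day 1 (1.71, adjusted p = 1.14e-05), in both of which *Ptgds* fell. *Akr1b3*, an aldose reductase that can make prostaglandin F2α, had the highest mean TPM of these over the 12 libraries (194) and was not called.

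Of the other genes of leukotriene synthesis, 5 of 7 were tested. *Dpep2*, a dipeptidase that can turn leukotriene D4 into E4, rose on day 1 (1.64, adjusted p = 0.00302) and day 7 (1.79, adjusted p = 0.000776). *Mgst3*, a microsomal glutathione transferase with the highest mean TPM of the group over the 12 libraries (250), fell on day 7 (−1.29, adjusted p = 1.16e-06), but by less than a FC of 2 on library sizes alone and on log2 TPM. *Lta4h*, the leukotriene A4 hydrolase, was not called, with 26.6 ± 2.01 CPM (SD, n = 4) in sham, 26.9 ± 0.748 on day 1 and 32.9 ± 2.07 on day 7. Of the other lipoxygenases, 1 of 4 was tested, and that gene, *Alox8*, was not called at means of 0.501 to 0.803 CPM.

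Of 7 genes for export and breakdown, all tested, *Cyp4f18*, which inactivates leukotriene B4, rose from 0.961 ± 0.270 CPM (SD, n = 4) to 6.01 ± 3.03 on day 1 (2.63, adjusted p = 0.00041) and 4.04 ± 2.11 on day 7 (2.06, adjusted p = 0.00108). *Ptgr1*, a reductase of prostaglandins and leukotriene B4, rose on day 7 (1.20, adjusted p = 0.000278). *Hpgd*, the enzyme that begins prostaglandin breakdown, rose between day 1 and day 7 (1.34, adjusted p = 0.000204). Its level was 6.66 ± 2.07 CPM (SD, n = 4) in sham, 3.80 ± 0.682 on day 1 and 9.65 ± 1.33 on day 7. *Ptgr2* had the highest mean TPM of the group over the 12 libraries (118) and was not called.

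Of the prostanoid receptors, 6 of 9 were tested. *Ptger2*, a receptor for prostaglandin E2, rose on day 1 (1.81, adjusted p = 0.00281) and day 7 (2.21, adjusted p = 0.000255), from 0.192 ± 0.134 CPM (SD, n = 4) in sham. Both came under a FC of 2 on log2(TPM + 1) (0.28 and 0.44), which understates changes of genes this low. *Tbxa2r*, the thromboxane receptor, had the highest mean TPM of these over the 12 libraries (3.92) and rose on day 7 against sham (1.30, adjusted p = 0.0038) and against day 1 (1.27, adjusted p = 0.00548). Without sham replicate 1 the former was 0.99, just under a FC of 2.

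Of the leukotriene and lipoxin receptors, 4 of 6 were tested. *Ltb4r1*, the high-affinity receptor for leukotriene B4, rose on day 1 (3.00, adjusted p = 0.000204) and fell between day 1 and day 7 (−2.58, adjusted p = 0.000223). It had 0.504 ± 0.178 CPM (SD, n = 4) in sham, 4.05 ± 2.45 on day 1 and 0.664 ± 0.322 on day 7. *Fpr2*, a receptor for lipoxin A4 and formyl peptides, rose on day 1 (2.33, adjusted p = 0.0399) at 1.24 ± 0.670 against 0.234 ± 0.226 CPM, which did not hold in 6 of 12 fits with 1 library left out. These were the fits without sham replicate 1, 3 or 4 or day 1 AMI replicate 1, 2 or 4, with a highest adjusted p of 0.12. *Cysltr1*, a receptor for the leukotrienes that follow from *Ltc4s*, had the highest mean TPM of the group over the 12 libraries (2.29) and was higher by less than a FC of 2 (0.66 on day 1 and 0.93 on day 7).

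**Figure D5:**
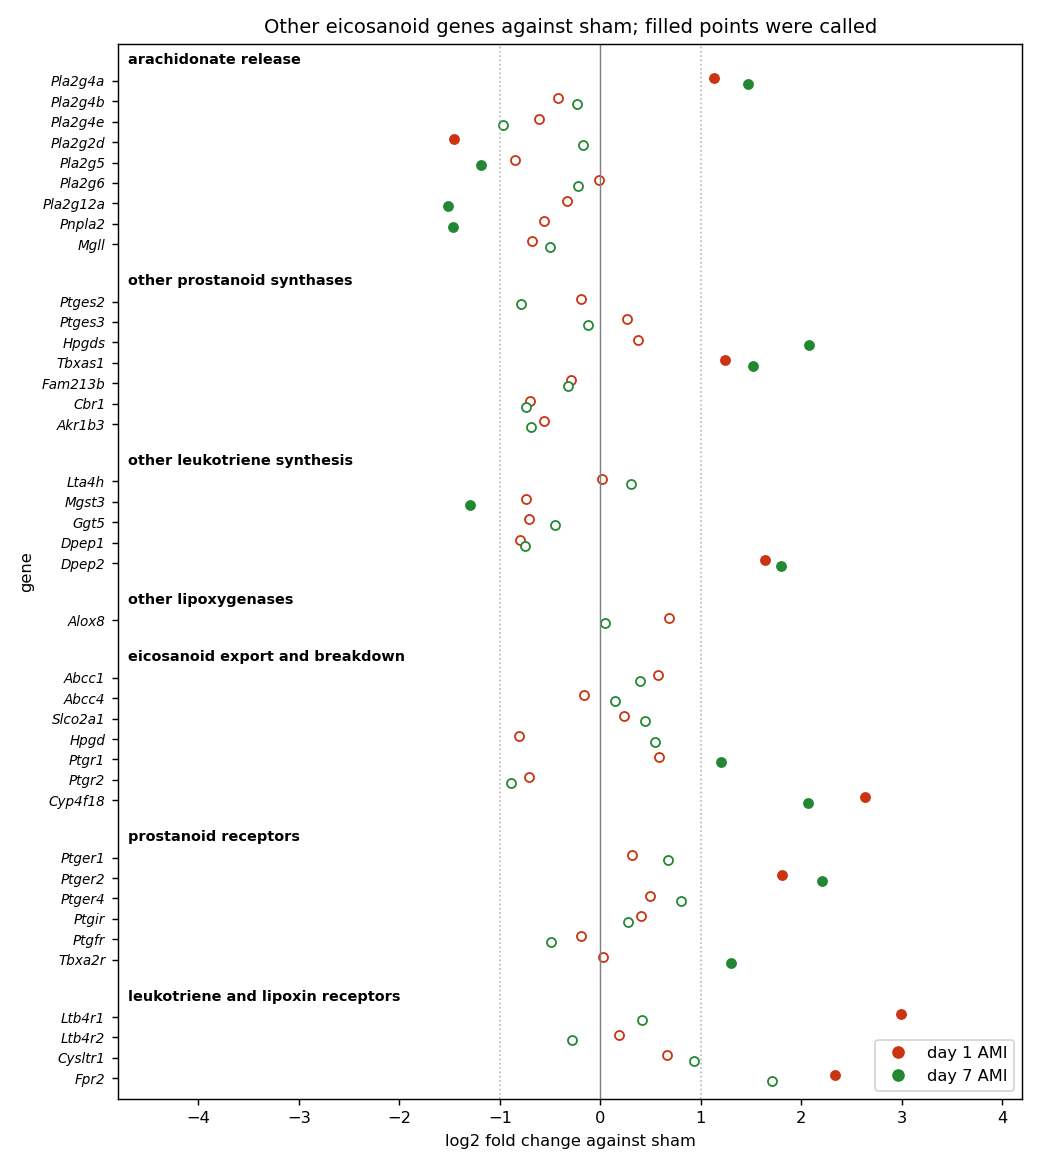
Log2 FC against sham (x axis) on day 1 (red) and day 7 (green) of the 39 other eicosanoid genes tested (y axis), grouped by role. Filled points were called and dotted lines mark a FC of 2. Filled points lie on both sides among the phospholipases, and to the right among the receptors.

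The genes whose pattern over the 12 libraries was most like that of each called gene were found by the root-mean-square difference of mean-centred log2 CPM, over genes of at least 1 CPM. For *Ptgs2* these were *Fstl3* (0.338) and *Atf3* (0.380), where *Ptgs2* itself varied by 1.28 around its mean. For *Ptgds*, which varied by 1.07, they were *Ppl* (0.322), *Klf15* (0.362) and *Rpl3l* (0.365). For *Ptgis*, which varied by 0.656, they were *Btbd19* (0.120), *Crlf2* (0.122) and *Dynll1* (0.133).

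For *Alox5ap*, which varied by 0.792, they were *Il4ra* (0.188), *Nfam1* (0.205) and *Npl* (0.207). For *Alox15*, which varied by 1.16, no gene came close, and the nearest were *Trim30b* (0.599), *Gipr* (0.695) and *Nlrp3* (0.726). Among the 10 genes the closest pairs were *Ptgs1* with *Ltc4s* (0.367) and *Ptges* with *Ptgis* (0.429). The distances are a description over 12 libraries that share their groups and depths.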

How the data were processed

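RNA-Seq of 12 whole mouse hearts (4 sham, 4 day 1 AMI, 4 day 7 AMI) was re-analysed. Libraries were assigned by their labels. The authors made cDNA with random hexamers, read 150 bp from both ends of each fragment, removed adapters with Cutadapt, aligned with STAR (2.4.0j in the submitters' processing notes) to GRCm38 and quantified them with RSEM. The authors deposited raw counts per gene, which are not normalized, and TPM rounded to 2 decimals. The tool behind the counts, the strand and the handling of multiply aligned reads are not given in the sources used here. Counts were fitted with edgeR 4.0.16 in R 4.3.3 (TMM, filterByExpr by group, quasi-likelihood test, 3 groups in a single fit). Standard errors and intervals follow from the F statistic. Within-heart ratios used counts plus 0.5 and exact two-sided permutation tests.

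The 10 genes, the lists of other eicosanoid genes and the marker lists were chosen with earlier results of these data known. The 10 genes were named in every comparison. From the other lists, genes that were called and the gene of each group with the highest mean TPM over all libraries were named, and marker genes only beside a result. The 3 genes most like each called gene were named, except 1 that is not reported here. *Lta4h* and the mast cell proteases were named after their values were seen. The gene Dpep2 stands on more than one identifier, and the one with more counts was used. Alternatives were DESeq2 1.42.0, limma 3.58.1 on TPM after adding 1 or 0.1 and taking log2, RLE size factors, no filter, only the groups compared, a replicate block, no FC minimum, and each heart left out. A fit on library sizes alone was added after seeing the data, because TMM factors differed between groups (0.781 to 0.917 in sham, 1.01 to 1.06 on day 1, 1.10 to 1.17 on day 7). Libraries of 1 group differed by more than counting error (chi-square per degree of freedom of at least 9.41). The floor of 3 counts and the counts themselves cover counting error only. The fits were tested on simulated data. Figures were drawn with matplotlib 3.10.9.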

Additional observations from a re-analysis of the deposited data

Results flagged for a closer look

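*Alox5ap* in sham replicate 2 had 11.5 CPM, while the other 3 sham hearts had 5.74 to 6.62 CPM. The gap to the nearest heart was 0.846 of the range of the group, above Dixon's 95% critical value for 4 samples. It was the only value so far from its group among the 30 groups of 4 hearts examined (10 genes in 3 groups), and chance marks about 1 in 20. The same heart was the highest sham heart in erythroid markers (4459 CPM), neutrophil markers (64.4 CPM) and leukocyte markers (139 CPM). Without it *Alox5ap* rose by 1.97 on day 1 and 1.41 on day 7 on the log2 scale.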

How the results depend on the processing

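The direction and call of the 10 genes were the same in 340 of 360 values with 1 library left out (8 calls lost, 8 gained, 4 signs turned) and in 241 of 268 values of the other alternatives (5 lost, 14 gained, 8 turned). Without a FC minimum, 5 genes were higher and 3 lower on day 1, 6 and 2 on day 7, and 3 and 2 between day 7 and day 1. On library sizes alone 5 were higher on day 1 and 5 on day 7. That scaling moved the median of all genes by 0.27, 0.40 and 0.13 in the 3 comparisons, and log2(TPM + 1) by 0.25, 0.41 and 0.16. With log2(TPM + 0.1) 6 were higher on day 7, and with both pseudocounts 0 were lower between day 7 and day 1. DESeq2 on 12 libraries, DESeq2 on the groups compared and RLE factors each gave 2 lower on day 7, because *Alox5* reached a FC of 2. With 1 library left out, 2 to 4 genes were higher on day 1, 1 to 2 lower on day 7 and 0 to 2 lower between day 7 and day 1. *Ptgs2* on day 7 was at 0.82, under a FC of 2, on log2(TPM + 1).

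Signs turned for *Ptgs1* on day 1 (0.33, 0.38 on log2 TPM, 0.23 on library sizes, 0.19 without sham replicate 4, 0.04 without day 1 AMI replicate 3, lowest −0.16), *Alox12* on day 7 (0.19, 0.24, and 0.10 on library sizes), *Ptges* between day 7 and day 1 (−0.05 without day 1 AMI replicate 4, −0.08 without day 7 AMI replicate 4, in a range of −0.077 to 0.26) and *Alox5ap* between day 7 and day 1 (0.0104 and 0.0109 on log2 TPM). None of these was called. With TPM the ratio of *Ptgs2* to *Ptgs1* on day 7 was 0.81 above sham (exact permutation p = 0.0571), and that of *Ptges* to *Ptgis* −0.86 (exact permutation p = 0.0286). *Alox15* did not pass the filter on low counts in either comparison with sham when edgeR was fitted to only the groups compared. The cause of these differences was not tested. Over all genes, 456 were lower on day 1 (63 and 145 on log2 TPM with pseudocounts of 1 and 0.1, 217 on library sizes), 900 on day 7 (111, 189 and 318) and 411 between day 7 and day 1 (130 and 208), while 2346 were higher on day 7 (4163 with log2(TPM + 0.1), 3633 on library sizes).

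Same-numbered hearts of different groups correlated by −0.244 to 0.229 over 12 pairs, and differently numbered ones by −0.271 to 0.250 over 36 pairs. The ranges are alike, but a weak pairing by number could lie within them and is not excluded. A replicate block left the counts of the 10 genes at 3 higher and 1 lower on day 1, 3 and 1 on day 7, and 0 and 1 between day 7 and day 1. Depth limits *Alox15* most, with 1 to 41 counts.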
